A study of Mus musculus with 8 samples.

Results

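The genes followed here mark macrophages of the mouse embryo: Csf1r, Cx3cr1, Mrc1, Tyrobp, Fcer1g, C1qb, Cd68, Ctss, Lyz2 and Aif1. They are 10 of 36444 gene and transcript names on the array. Every non-control probe that the array annotates to one of them was taken, which gave 13 of 55664 usable probes. The study measured RNA of E10.5 embryos of the C57BL/6 strain on 1-colour Agilent arrays, after laser capture microdissection of spinal neural tube and of the paraxial tissue beside it. The mutants had conditional loss of Geminin (Gmnn, an inhibitor of replication licensing) and are labelled fl/fl; cre/o, against embryos labelled wild type. Each of 2 mutant and 2 wild-type embryos gave 1 paraxial and 1 neural tube array, so the 4 groups hold 2 arrays each and the 8 arrays come from 4 embryos. The labels name neither the promoter that drives the cre nor the deleted part of Gmnn, nor whether the wild-type embryos carry a floxed allele.

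Macrophages of the early embryo arise from yolk sac progenitors, before blood stem cells contribute, and spread through the body with the circulation. In the central nervous system they become microglia, and elsewhere they remove dying cells and remodel tissue. The receptor tyrosine kinase CSF1R and its ligands CSF1 and IL34 keep them alive, while adaptors such as TYROBP and the Fc receptor gamma chain carry signals from receptors that lack a signalling tail of their own.

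Signals are given as scaled log2 signal, which is log2 of the processed signal minus the 75th percentile of that array, placed back on a common scale. The 75th percentile itself lay between 3164 and 6394, and 71.8% to 78.1% of probes on an array were well above background by the scanner software's flag. A probe was tested where 1 group or more had the flag on both its arrays, which kept 42754 probes in all and 11 of the 13 macrophage probes. Levels of different probes are not comparable, since each binds with its own strength. All 8 arrays were on 1 slide in 1 scan.

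The labels of the tissues held. Of 26 neural tube genes 23 were lower in paraxial tissue than in neural tube, and of 23 measured paraxial genes 18 were higher and 1 lower, averaged over genotypes (limma adjusted p below 0.05). Gmnn had 11.42 and 11.39 in mutant paraxial tissue, against 12.20 and 11.88 in wild-type paraxial tissue. In neural tube it had 12.11 and 11.80 in mutants, against 12.35 and 12.24 in wild types. Each mutant value lay below both wild-type values of its tissue, but neither difference passed (-0.63 ± 0.25, SE, limma adjusted p = 0.994, and -0.35 ± 0.25, adjusted p = 0.918). Where the Gmnn probe lies relative to the deleted part is not known here, so the probe does not check the genotype.

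Most of the macrophage genes had a signal well above background in both tissues. Of the 10 genes, 9 had a probe well above background, and all of these but Ctss were so on all 8 arrays. The exception without any measured probe was Mrc1, the mannose receptor of tissue macrophages, which had 4.23 to 5.21 and no array with the flag set. Of 94 further macrophage genes on the array, 72 were measured. They included Ptprc, the leukocyte surface phosphatase CD45, and Adgre1, an adhesion receptor used to mark mouse macrophages, both well above background on all 8 arrays and both named after their values were seen. Of 20 neutrophil and mast cell genes 10 were measured, among them Mpo and Prtn3, while Elane, S100a8 and S100a9 were not. Of 15 lymphoid genes 10 were measured too. All these counts stand beside 28897 of the 36444 names on the array with a measured probe. They therefore do not show that a cell type was present.

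Which part of its mRNA each probe reads was not looked up. The probes of C1qb, Tyrobp and Lyz2 are shown because they carry, in turn, the largest difference between tissues, a difference in the same direction that did not pass, and a value open to a near-identical paralog. All are 60 bases, 5′ to 3′, printed without capitals since no part is singled out, with mm9 positions from the array files.
C1qb, minus strand, chr4:136436578-136436637: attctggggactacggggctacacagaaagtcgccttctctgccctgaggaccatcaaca
Tyrobp, plus strand, chr7:31200651-31202378: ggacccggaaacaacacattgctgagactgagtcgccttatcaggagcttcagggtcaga
Lyz2, minus strand, chr10:116719175-116719234: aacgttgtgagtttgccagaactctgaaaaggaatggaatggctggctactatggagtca
The Tyrobp positions span 1728 bases, more than the 60 of the probe. Lyz2 has a close neighbouring paralog, Lyz1, and how far this probe tells them apart was not tested.

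Between tissues, Fcer1g and C1qb were higher in paraxial tissue than in neural tube in all 4 embryos and passed the test when averaged over genotypes. They were 2 of 11 probes, or 2 genes of 9, beside a background of 12% of all 42754 probes called in that contrast. That share is near the background, so it is not a result about the macrophage genes as a group. In laser-captured tissue, more cells of a type and more RNA per cell cannot be told apart. The median difference of the 11 probes was 0.54 on the log2 scale, against 0.01 over all probes, and 9 of 11 were higher.

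C1qb encodes a chain of C1q, the molecule that starts the classical complement pathway and is made largely by macrophages. It had 12.05 and 13.81 in mutant paraxial tissue, against 10.75 and 12.09 in mutant neural tube. In wild types it had 12.54 and 13.0002 in paraxial tissue, against 11.90 and 12.19 in neural tube. Within each embryo the paraxial array was the higher, by 1.31 and 1.72 in mutants and by 0.65 and 0.81 in wild types, while the 2 tissues of the mutants overlapped between embryos. Averaged over genotypes the difference was 1.12 ± 0.24 (SE, limma adjusted p = 0.0297), which is 2.17-fold. The call rested on every embryo but mutant embryo 1: the adjusted p was 0.123 without wild-type embryo 1, 0.218 without wild-type embryo 2 and 0.0544 without mutant embryo 2. It was also lost without the filter on dim probes (adjusted p = 0.0817) and without the embryo in the model (0.337), and leaving out a single array ended it for each array but the paraxial one of mutant embryo 1 (0.0676 to 0.135).

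Fcer1g encodes the gamma chain shared by activating Fc receptors. It had 10.70 and 11.67 in mutant paraxial tissue, against 9.63 and 10.35 in mutant neural tube. Wild-type paraxial tissue had 11.07 and 10.93, against 10.53 and 9.63 in wild-type neural tube. All 4 paraxial arrays lay above all 4 neural tube arrays, although by little at the edge (10.70 against 10.53). The difference was 1.06 ± 0.20 (SE, limma adjusted p = 0.0176), or 2.08-fold. It was not called without wild-type embryo 2 (adjusted p = 0.138), mutant embryo 1 (0.0659) or mutant embryo 2 (0.101), nor without the embryo in the model (0.182). Of single arrays, leaving out a neural tube array of either mutant embryo, the paraxial array of mutant embryo 2 or either array of wild-type embryo 2 ended the call (0.0644 to 0.0927).

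**Figure D1:**
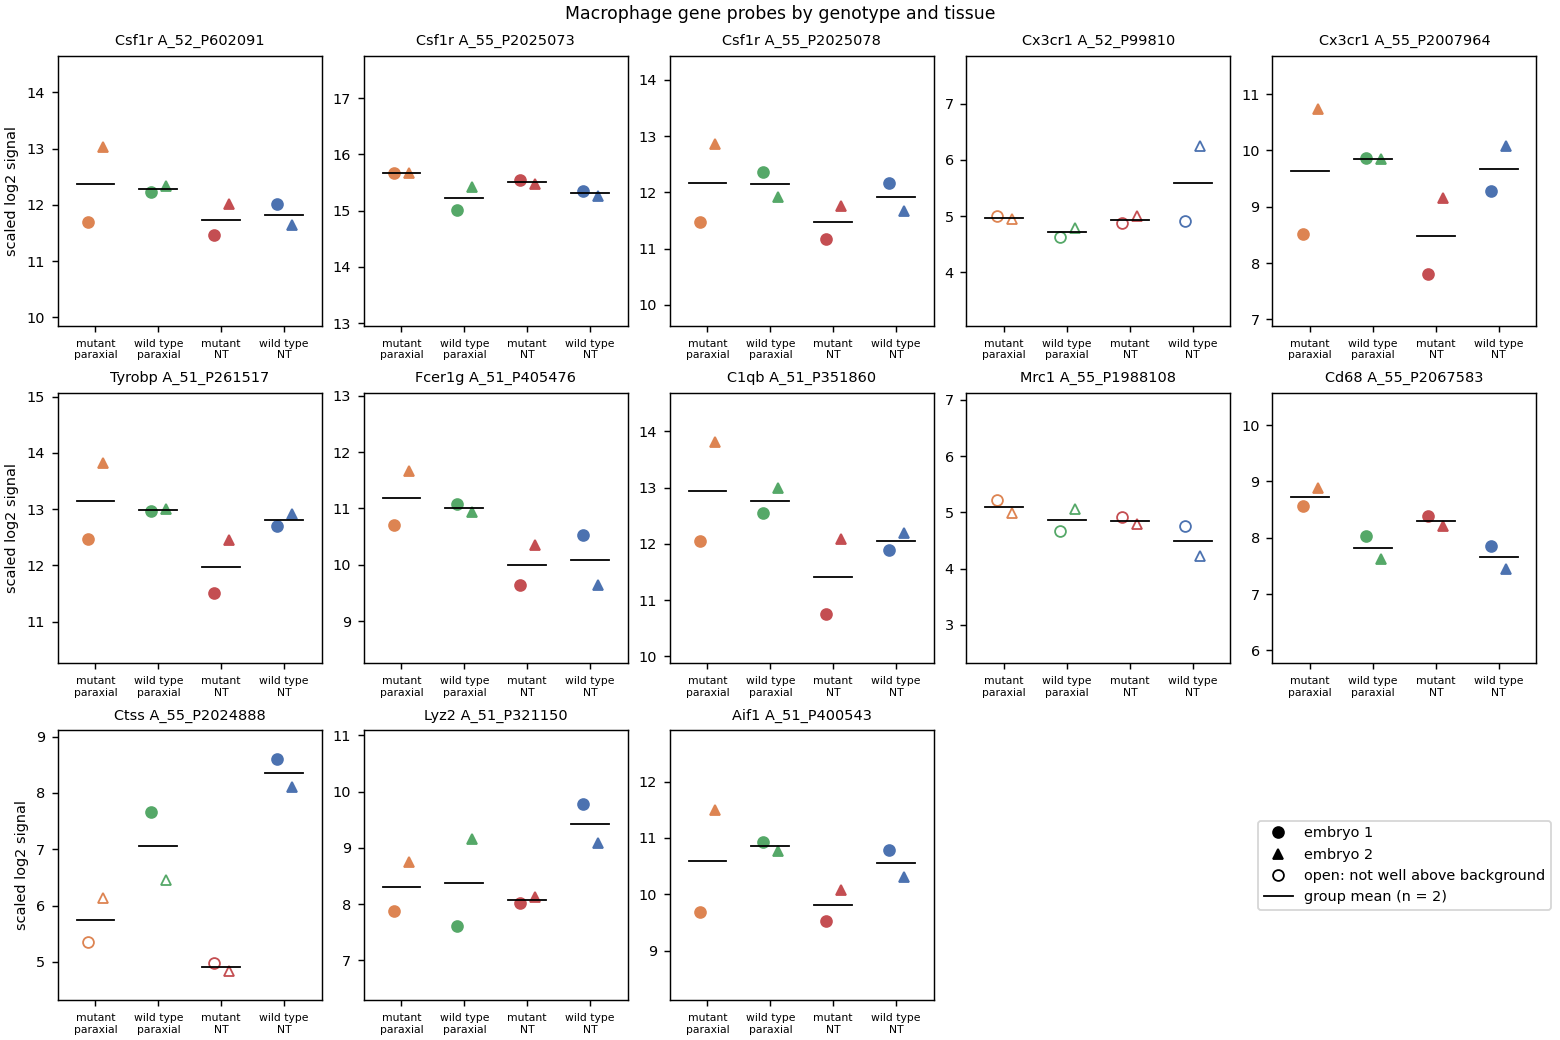
Scaled log2 signal (vertical axis, each panel spanning the same number of log2 units) of the 13 probes of the macrophage genes in mutant and wild-type paraxial tissue and neural tube (NT); circles are embryo 1, triangles embryo 2, open symbols are not well above background and lines are means of 2 arrays. C1qb and Fcer1g sit higher in paraxial tissue, mutant embryo 2 stands above mutant embryo 1 for most probes in paraxial tissue, and Ctss is open on all 4 mutant arrays.

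Tyrobp, the adaptor with the cytoplasmic activation motif, ran the same way in all 4 embryos without passing. It had 12.47 and 13.81 in mutant paraxial tissue, against 11.51 and 12.45 in mutant neural tube. In wild types the values lay close together, at 12.96 and 13.002 in paraxial tissue against 12.70 and 12.92 in neural tube. The averaged difference was 0.67 ± 0.19 (SE, limma adjusted p = 0.0726), made up of 1.16 ± 0.27 in mutants and 0.17 ± 0.27 in wild types. It passed with normexp background correction, a stricter filter on dim probes, or trend and robust moderation (limma adjusted p from 0.0370 to 0.0465).

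Csf1r has 3 probes on chromosome 18, and they did not tell the same story. A_52_P602091 had 11.70 and 13.03 in mutant paraxial tissue, 12.24 and 12.34 in wild-type paraxial tissue, 11.46 and 12.02 in mutant neural tube and 12.01 and 11.64 in wild-type neural tube. A_55_P2025078 had 11.47 and 12.87, 12.37 and 11.93, 11.18 and 11.76, and 12.18 and 11.67 in the same order of groups. These 2 probes moved together over the arrays (r = 0.92 over 8 arrays from 4 embryos, a description) and gave paraxial minus neural tube differences of 0.55 ± 0.20 (limma adjusted p = 0.141) and 0.46 ± 0.21 (adjusted p = 0.216), positive in all 4 embryos. The third probe, A_55_P2025073, stayed between 15.01 and 15.68 on all arrays, with a difference of 0.04 ± 0.12, and had r = 0.11 and r = -0.15 with the other 2. It lies at a lower coordinate of the plus strand, so nearer the 5′ side of the gene, and whether it reads another transcript was not tested. In means of gene lists below each gene enters with its brightest measured probe, which for Csf1r is this one.

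The remaining genes did not pass either. Cx3cr1, the fractalkine receptor of microglia and other macrophages, was measured by A_55_P2007964, whose tissue difference was 0.66 ± 0.31 and positive in 3 of 4 embryos. Its second probe, A_52_P99810, had 4.63 to 6.25, no array with the flag set, and no test. Aif1, the cytoplasmic calcium-binding protein Iba1, had 0.54 ± 0.26, and Cd68, a glycoprotein of the endosome and lysosome membrane, had 0.30 ± 0.13, each positive in 4 of 4 embryos. Aif1 passed without the paraxial array of mutant embryo 1 (0.92, limma adjusted p = 0.0316). Ctss, the lysosomal protease cathepsin S, and Lyz2, the lysozyme of myeloid cells, were the 2 probes with a negative average (-0.23 ± 0.22 and -0.41 ± 0.35). The limma adjusted p of these 5 probes lay between 0.197 and 0.568.

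Counted by embryo, 7 of 11 probes were higher in paraxial tissue in all 4 embryos, beside 17.1% of all probes. They were C1qb, Fcer1g, Tyrobp, Aif1, Cd68 and 2 of the Csf1r probes. The tests within a genotype called fewer. In mutants 0 of 11 probes passed, beside 5.55% of all probes, and 5 of 11 did not overlap between tissues in the higher direction, beside 18.9%. Ctss is one of these 5, but it was below the flag on all 4 mutant arrays, so its order there was not measured. The other 10 differences were all positive (median 0.74, against 0.02 over all probes), and 4 of them had an unadjusted limma p under 0.05. In this contrast 8459 of all 42754 probes had the same. C1qb stood at 1.51 ± 0.35 (adjusted p = 0.0555), Fcer1g at 1.19 ± 0.28 (0.0599), Tyrobp at 1.16 ± 0.27 (0.0600) and Cx3cr1 at 1.14 ± 0.44 (0.211). With 4 other settings (median scaling, normexp background correction, a stricter filter on dim probes, and trend and robust moderation) C1qb, Fcer1g and Tyrobp passed in mutants. Those settings called 6.04% to 6.54% of all probes in mutants, against 5.55% in the main fit.

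In wild types 0 of 11 passed, beside 2.31% of all probes. An unadjusted limma p under 0.05 was reached by 2 of the 11, beside 7734 of all 42754 probes. Arrays of the 2 tissues did not overlap for 4 probes higher in wild-type paraxial tissue, beside 17.7% of all probes, and for 1 lower, Ctss, beside 18.6%. Ctss is also 1 of the 2 with an unadjusted limma p under 0.05. It passed the filter only through wild-type neural tube, where it is high, so its place in both counts is not a result. Fcer1g was the highest at 0.92 ± 0.28 (adjusted p = 0.150), and C1qb had 0.73 ± 0.35 (adjusted p = 0.328). Whether the tissue difference itself depended on genotype was tested as an interaction. Its estimate was positive for the 10 probes besides Ctss, whose mutant side was not measured (median 0.48, against 0.00 over all probes), and 0 of 11 passed, beside 0% of all probes, with 2 of 11 macrophage probes and 2154 of all at an unadjusted limma p under 0.05. The 2 were Ctss and Tyrobp (0.99 ± 0.39, adjusted p = 0.955). The tissue difference of the macrophage genes is therefore not shown to differ between mutants and wild types.

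**Figure D2:**
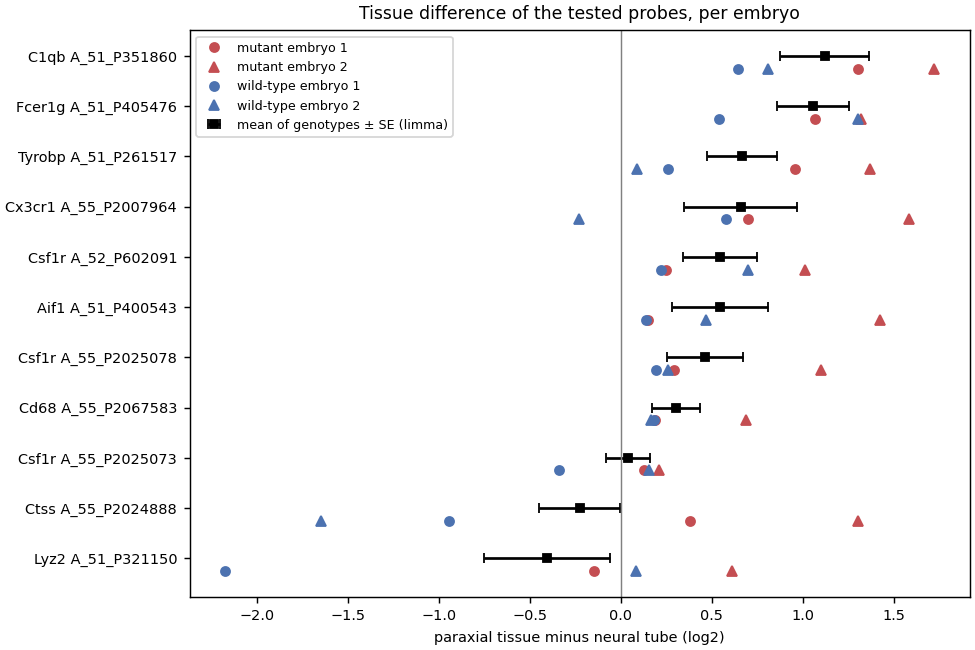
Paraxial tissue minus neural tube (log2, horizontal axis) for the 11 tested probes, as 1 point per embryo and, as black squares, the average over genotypes ± SE from limma. C1qb and Fcer1g lie right of 0 in all 4 embryos, while for Ctss, below the flag on all 4 mutant arrays, the mutant embryos lie right and the wild-type embryos left of 0.

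Between genotypes no macrophage probe passed in either tissue. In paraxial tissue 0 of 11 passed, beside 0% of all 42754 probes (1496 of them, and 2 of the 11, at an unadjusted limma p under 0.05). The differences were 7 positive and 4 negative with a median of 0.08. In neural tube 0 of 11 passed, beside 0% of all probes (1577, and 1 of the 11, at an unadjusted limma p under 0.05), with 9 negative and a median of -0.63, against -0.01 over all probes. Mutant and wild-type arrays did not overlap for 5 probes lower in mutant neural tube, beside 15.6% of all probes, and for 2 probes higher, beside 16.8%. Ctss is 1 of the 5, and is the 1 with an unadjusted limma p under 0.05. It passed the filter only through wild-type neural tube, where it is high, so its place in these counts is not a result.

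The 5 probes lower on both mutant neural tube arrays were those of Ctss, Lyz2, Cx3cr1, Tyrobp and Aif1. Cx3cr1 had 7.81 and 9.16 in mutants, against 9.28 and 10.07 in wild types (-1.19 ± 0.69, limma adjusted p = 0.918). Lyz2 had 8.02 and 8.13 in mutants, against 9.78 and 9.08 in wild types (-1.35 ± 0.77, adjusted p = 0.918). Tyrobp and Aif1 differed by -0.83 ± 0.43 and -0.75 ± 0.58 (both adjusted p = 0.918). In paraxial tissue the 4 besides Ctss overlapped between genotypes: Cx3cr1 had 8.51 and 10.74 in mutants and 9.86 and 9.84 in wild types, and Lyz2 7.87 and 8.74 in mutants and 7.60 and 9.16 in wild types. The paraxial differences were -0.22 ± 0.69 for Cx3cr1 and 0.16 ± 0.43 for Tyrobp.

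Ctss entered the test only through wild-type neural tube, the group where it is high, so its difference there is a description. It had 4.98 and 4.83 in mutant neural tube, not well above background, against 8.60 and 8.11 in wild-type neural tube, well above it on both arrays. Since the mutant side gives only a bound, it was at least 3.17-fold lower in mutant neural tube, counted against the lowest signal well above background on those arrays. Its limma adjusted p was 0.496. In paraxial tissue it had 5.36 and 6.13 in mutants, neither well above background, against 7.66, above background, and 6.46, not above it, in wild types. Wild-type paraxial tissue was thus measured on 1 of its 2 arrays, and no fold is given (limma adjusted p = 0.994). Neither passed over all probes, and Ctss has 1 probe on the array, so no second probe checks it.

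Cd68 lay the other way in both tissues. It had 8.57 and 8.89 in mutant paraxial tissue, against 8.04 and 7.61 in wild-type paraxial tissue (0.90 ± 0.29, limma adjusted p = 0.994). In neural tube it had 8.38 and 8.21 in mutants, against 7.86 and 7.45 in wild types (0.64 ± 0.29, adjusted p = 0.918). The groups did not overlap in either tissue. Besides Cd68 the flat Csf1r probe A_55_P2025073 was the other one higher on both mutant arrays of both tissues (15.67 and 15.68 in mutants, against 15.01 and 15.42 in wild types in paraxial tissue). In paraxial tissue 2 probes higher without overlap stood beside 21% of all probes, and 1 lower, Ctss, beside 15.9%. Ctss, also 1 of the 2 paraxial probes with an unadjusted limma p under 0.05, was well above background there on 1 wild-type array alone. Its order in paraxial tissue was therefore not measured.

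C1qb overlapped between genotypes in both tissues, with differences of 0.16 ± 0.54 in paraxial tissue and -0.63 ± 0.54 in neural tube (adjusted p = 0.996 and 0.918). Its values in mutants spread much further than in wild types. Without mutant embryo 2 the paraxial difference was -0.72, and without mutant embryo 1 the neural tube difference was 0.05.

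The direction of the gap between the mutant embryos was shared by most of the genes. Mutant embryo 2 stood above mutant embryo 1 in both tissues for 8 of 11 probes, beside 37.7% of all probes, while wild-type embryo 2 stood above wild-type embryo 1 in both tissues for 2 of 11, beside 29.6%. In mutant paraxial tissue embryo 2 was higher for 11 of 11 probes (Ctss included, which was below the flag in both), by a median of 1.33, and in mutant neural tube for 8 of 11, by a median of 0.56. The same medians were -0.02 in wild-type paraxial tissue and -0.41 in wild-type neural tube. Over all probes these 4 medians were -0.01, 0.00, 0.00 and -0.11. The medians are of signed differences, which in wild-type paraxial tissue ran from -1.20 (Ctss, with an array below the flag) to 1.56. The gap was not wider in mutants for every probe. Its size was larger in wild types in both tissues for Lyz2, Cd68 and Csf1r A_55_P2025073. Fcer1g had the larger gap in wild types in neural tube (-0.90, against 0.71 in mutants).

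In mutant paraxial tissue the gap was widest for Cx3cr1 and Aif1. In mutants, Cx3cr1 was higher in embryo 2 by 2.23 in paraxial tissue and 1.35 in neural tube, and Aif1 by 1.83 and 0.55. C1qb was higher by 1.76 and 1.34, so that C1qb and Cx3cr1 were the 2 of 11 probes that differed by over 1 log2 unit in both tissues, beside 2.48% of all probes. In wild types the same 3 genes differed between embryos by -0.49 to 0.79. They were picked for their mutant gap, so the smaller wild-type gap is a description. Other probes had wide gaps in wild types, such as Lyz2 (1.56 in paraxial tissue) and Fcer1g (-0.90 in neural tube). With 2 embryos a genotype, the mutant group means of Cx3cr1, Aif1 and C1qb are averages of a low and a high embryo.

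**Figure D3:**
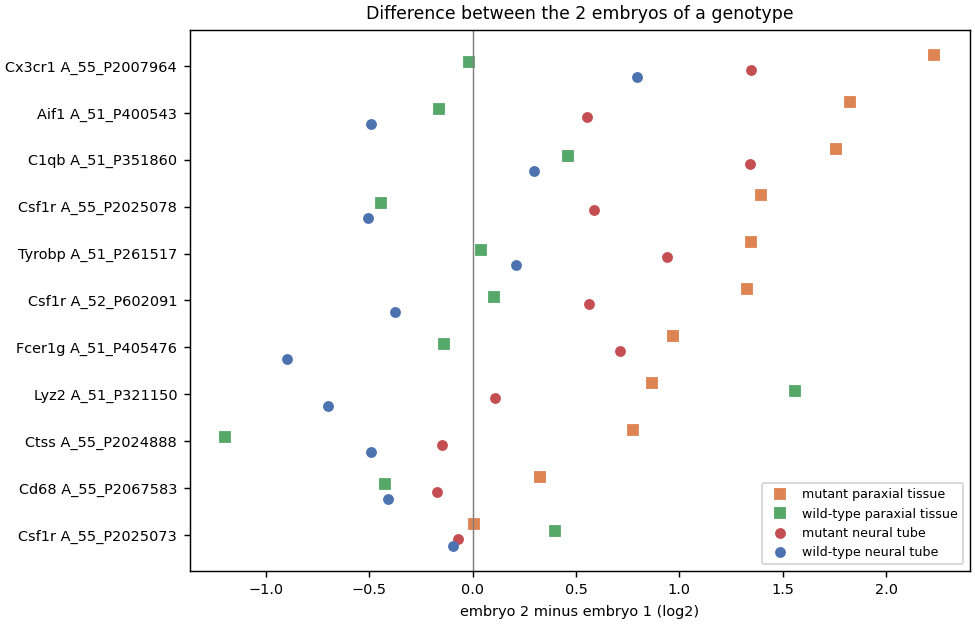
Embryo 2 minus embryo 1 (log2, horizontal axis) of the 11 tested probes within mutant and wild-type paraxial tissue (squares) and neural tube (circles). Mutant paraxial values lie right of 0 for all 11 probes, Ctss included although below the flag, and reach 2.23 for Cx3cr1, while wild-type values lie on both sides.

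Several of the genes also moved together over the arrays. For 7 probes of 6 genes (C1qb, Tyrobp, Fcer1g, Aif1, Cx3cr1 and 2 of the Csf1r probes, grouped after their values were seen), the correlations of the 21 pairs ran from 0.59 to 0.97 with a median of 0.88, over 8 arrays that come from 4 embryos. Each of the other probes had lower correlations with these 7: Ctss 0.03 to 0.52, Cd68 -0.15 to 0.45, Lyz2 -0.02 to 0.41 and Csf1r A_55_P2025073 -0.26 to 0.13. Among 72 wider macrophage genes, the mean centred profile of the 9 measured genes had its highest correlations with Ptprc (r = 0.94), Cd52, a small surface glycoprotein of leukocytes (0.94), C1qa, the partner chain of C1qb (0.89), and Vav1, a guanine nucleotide exchange factor of blood cells (0.89). Others did not follow it: Adgre1 had r = -0.04, Mpeg1 -0.06, Itgam -0.11, Siglec1 -0.25 and Irf8 -0.48. The lowest was Lamp1 at -0.86. An r above 0.8 was reached by 8 of these 72 genes, or 11.1%, and by 1.9% of the 28888 genes outside the members, which include the 72. The profile also takes in the flat Csf1r probe and Ctss, which was well above background on only 3 arrays.

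C1qa and Ptprc were picked for their likeness to the macrophage profile over these same 8 arrays, so their values are a description. They add no support for the gap between the 2 mutant embryos. C1qa had 8.39 and 11.37 in mutant paraxial tissue, 9.92 and 9.78 in wild-type paraxial tissue, 6.68 and 9.33 in mutant neural tube, and 9.45 and 8.35 in wild-type neural tube. Ptprc had 9.40 and 10.34, 10.03 and 10.07, 8.997 and 9.52, and 9.68 and 9.87 in the same order. Over all genes the 5 most alike in profile were Gm4193, a long noncoding RNA interval on chromosome 6, Mettl11b, Gm2929 and Tex101, with r from 0.95 to 0.97. None of the 5 is in the macrophage lists, and each had a higher r than Ptprc. The 3 most like the brightest Csf1r probe, A_55_P2025073, were Tbc1d22b, a transcript with no gene symbol and Atp13a1, with r from 0.96 to 0.97, and no gene of the macrophage lists was among them.

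The wider macrophage list held genes that differed between tissues in both directions. Averaged over genotypes, 17 of 72 were higher in paraxial tissue and 4 lower, beside 12% of all probes called in either direction, with a median of 0.16, against 0.02 over all genes. The 4 with the smallest p were Stab2, a scavenger receptor (1.46 ± 0.14), the receptor tyrosine kinase Axl (1.30 ± 0.13), Tmem119 (2.42 ± 0.24) and Arhgdib (1.01 ± 0.12). Their limma adjusted p ran from 0.00277 to 0.0044. Stab2 is also known from sinusoidal endothelium, Axl from mesenchyme and Tmem119 from the bone lineage, so these 3 are not markers of macrophages alone. The other genes called higher were not sorted by cell type, so that limit is stated for these 3 only. The 4 lower genes, all named because they are few, were the chemokine receptor Cxcr4 (-1.58 ± 0.20), Mpeg1 (-0.996 ± 0.157), the transcription factors Irf8 (-1.04 ± 0.17) and Sall1 (-2.22 ± 0.42). None of the 4 followed the macrophage profile (r from -0.62 for Cxcr4 to -0.06 for Mpeg1), and which cells gave their signal was not tested. In mutants 9 were higher and 1 lower, beside 5.55% of all probes, and in wild types 3 were higher and 0 lower, beside 2.31%. Between genotypes 0 of 72 passed in either tissue, beside 0% of all probes.

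The ligands and regulators of the macrophage genes were read next. Of 12 measured, 3 passed between tissues, beside 12% of all probes, all lower in paraxial tissue: Irf8, a factor that macrophages need to mature, Cx3cl1, the neuronal ligand of CX3CR1 (-0.83 ± 0.17, limma adjusted p = 0.0216), and Serping1, the inhibitor of C1 (-0.53 ± 0.12, adjusted p = 0.0351). Cx3cl1 had 10.68 and 10.04 in mutant paraxial tissue, against 11.17 and 10.87 in mutant neural tube. In wild types it had 9.81 and 9.73 in paraxial tissue, against 10.45 and 11.11 in neural tube. In every embryo the paraxial array was the lower. The CSF1R ligands Csf1 and Il34, named for their role, had differences of -0.09 ± 0.14 and 0.01 ± 0.14 (adjusted p = 0.735 and 0.980). C1qa, at 1.41 ± 0.42, lay the same way as C1qb and had an adjusted p of 0.0816. Between genotypes 0 of 12 passed in either tissue, beside 0% of all probes.

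Markers of other cell types moved with the same contrasts. All 24 endothelial genes were higher in paraxial tissue averaged over genotypes (median 0.71, 11 passing, led by Erg and Plvap), as were all 14 erythroid genes (median 0.61, 6 passing, led by Alas2 and Klf1). Of 18 surface ectoderm genes 17 were higher (median 0.63, 6 passing), and all 3 counts stand beside 12% of all probes called. The mean of the endothelial genes, relative to its mean over 8 arrays, was 0.83 and 0.55 in mutant paraxial tissue and -0.00147 and 0.174 in wild-type paraxial tissue. In neural tube it was -0.76 and -0.24 in mutants and -0.60 and 0.04 in wild types. The endothelial mean was thus higher in paraxial tissue in every embryo, as for C1qb and Fcer1g. The part of vessels, blood and surface ectoderm in the tissue difference of the macrophage genes was not tested.

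Between the 2 mutant embryos the lists differed as follows. In paraxial tissue the core macrophage mean was 1.12 higher in embryo 2 and that of the 72 wider genes 0.31 higher, while the endothelial mean was 0.28 lower, the erythroid mean 0.10 higher and the megakaryocyte and platelet mean 0.04 lower. In mutant neural tube the differences were 0.51 for the core genes, 0.25 for the wider genes, 0.52 for endothelial genes and 0.02 for erythroid genes. Lymphoid genes (10 measured) and neutrophil or mast cell genes (10 measured) gave -0.15 and 0.02 in paraxial tissue. Surface ectoderm genes were 0.37 lower in mutant paraxial embryo 2 than in embryo 1, and their mean was 0.76 to 1.12 there, against -0.57 to -0.05 in wild-type paraxial tissue. Neural tube genes were 0.68 lower in mutant paraxial embryo 2 than in embryo 1, and 0.81 lower in wild-type paraxial embryo 2. In neural tube the paraxial genes were 0.57 higher in mutant embryo 2 and 1.29 higher in wild-type embryo 2. The part of these lists in the difference between the mutant embryos was not tested.

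**Figure D4:**
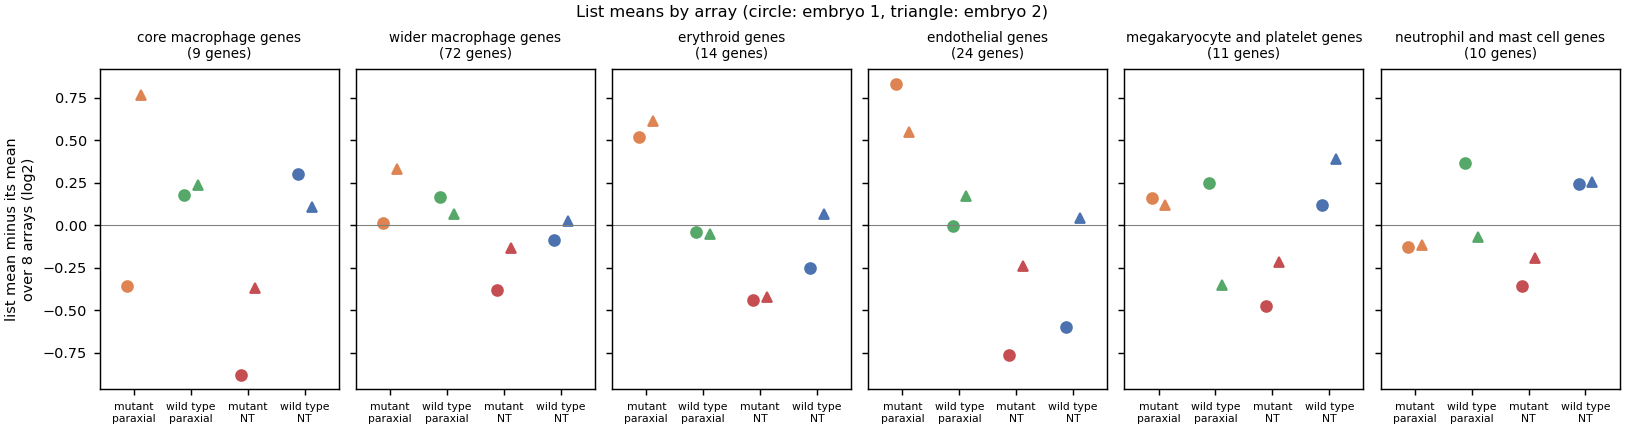
Mean scaled log2 signal of 6 gene lists, relative to the list's mean over 8 arrays (vertical axis), in each group; circles are embryo 1 and triangles embryo 2. The core macrophage mean is -0.35 and 0.77 in the mutant paraxial arrays, while the endothelial mean is 0.83 and 0.55 on the same arrays.

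The promoters of the 2 genes that differed between tissues are shown because PU.1, the factor that drives macrophage genes and binds purine-rich sites, gives a plain feature to look for. The motifs GAGGAA and GGAAGT were searched on both strands in the 250 bases before the annotated start, from RefSeq on GRCm38.p6. They share the letters GGAA and can overlap. Capitals mark a match on either strand.
C1qb, minus strand, chr4:136886201-136886450: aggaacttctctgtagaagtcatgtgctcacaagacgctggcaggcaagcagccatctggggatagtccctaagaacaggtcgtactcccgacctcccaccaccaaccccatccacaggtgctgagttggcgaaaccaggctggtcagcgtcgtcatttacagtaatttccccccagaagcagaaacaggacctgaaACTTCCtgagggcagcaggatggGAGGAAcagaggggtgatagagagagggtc
Fcer1g, minus strand, chr1:171234350-171234599: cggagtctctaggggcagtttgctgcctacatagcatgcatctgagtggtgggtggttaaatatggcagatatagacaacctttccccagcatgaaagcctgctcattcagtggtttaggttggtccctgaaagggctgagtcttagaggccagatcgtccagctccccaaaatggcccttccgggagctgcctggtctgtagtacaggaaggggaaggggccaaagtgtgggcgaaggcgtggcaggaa
C1qb held GAGGAA 30 bases and the reverse complement of GGAAGT 53 bases before the start, and Fcer1g held neither. Of the 8 macrophage genes with a promoter in the RefSeq table, 6 held at least 1 of the motifs (C1qb, Mrc1, Cd68, Ctss, Lyz2 and Aif1). The share of 32851 promoters with the same was 36.7%, with 23.3% for GAGGAA, 19.7% for GGAAGT and 6.26% for both. C1qb and Mrc1 held both. A match is a description of letters and not of a bound site, and of the genes that passed between tissues C1qb had one and Fcer1g had none.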

How the data were processed

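Per the labels' protocols, RNA of laser-captured tissue was converted to cDNA, labelled with Cy5 and hybridised to 1-colour arrays. The deposited scanner files hold, per the file headers, background-subtracted intensity per spot from Agilent Feature Extraction (version 11.0.1.1 per the submitters' processing notes). The authors' value table holds the same intensity values to within 0.497%. Control spots and 17 probes flagged on an array were left out, signals were scaled to each array's 75th percentile, and log2 was taken.

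Each probe was fitted in R 4.3.3 with limma 3.58.1 (lmFit and eBayes, means of 4 groups). The embryo was a random block (duplicateCorrelation, consensus correlation 0.597), since the labels say that both tissues came from the same embryo. Deviations of the 2 tissues of an embryo had r = 0.60 in mutants and 0.54 in wild types. Arrays of the same embryo number in mutants and wild types, which share a slide row, had r = 0.283 in neural tube and 0.282 in paraxial tissue; a block for that number was tried as an alternative. P-values were adjusted by Benjamini-Hochberg over 42754 probes, at a threshold of 0.05, in 6 comparisons. With 2 embryos a genotype, p-values rest on 4 residual and 2.9 prior degrees of freedom.

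Of other lists, the up to 4 genes with the smallest p in a contrast are named. The macrophage genes and all lists were chosen with earlier results of these data known. Exon and untranslated-region positions in mm9 were not used here.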

Additional observations from a re-analysis of the deposited data

Results flagged for a closer look

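Ctss was singled out because its tissue difference pointed opposite ways in the 2 genotypes. Paraxial minus neural tube was 0.38 and 1.30 in the mutant embryos and -0.94 and -1.65 in the wild-type embryos. The difference between these effects was 2.14 ± 0.44 (SE, limma unadjusted p = 0.00194, adjusted p = 0.639), so it did not pass. All 4 mutant arrays and 1 wild-type paraxial array were not well above background for Ctss, so the order of the mutant values lies below what the array measures. Wild-type neural tube, at 8.60 and 8.11, was the group measured on both arrays. Groups of 2 arrays are too small for a search for outlying arrays.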

How the results depend on the processing

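The number of macrophage probes called was recomputed under each alternative. For the tissue difference averaged over genotypes it was 2, beside 12% of all probes called. It was 3 with normexp background correction (beside 14.8%), a stricter filter on dim probes (12.6%), or trend and robust moderation (12.7%). It was 1 without the filter on dim probes (beside 5.79%) and 0 without a replicate block, with no embryo in the model (1.79%). Leaving out 1 array or both arrays of an embryo gave 0 to 3. It was 0 without 1 of the mutant neural tube arrays, without the paraxial array of mutant embryo 2, without 1 of the arrays of wild-type embryo 2, or without both arrays of embryo 2 of either genotype. It was 1 without 1 of the arrays of wild-type embryo 1, and without both arrays of embryo 1 of either genotype, and 3 without the paraxial array of mutant embryo 1. In mutants it was 3 in place of 0 with median scaling, normexp background correction, a filter for probes well above background on all arrays, or trend and robust moderation, and 1 with the replicate block of slide row as a fixed term. The 3 stood beside 6.04% to 6.54% of all probes called, and the 1 beside 3.27%. In wild types it was 1 with normexp, beside 5.48% of all probes. The genotype and interaction counts stayed at 0 under every alternative run. Among single values, the sign of the averaged tissue difference turned for Csf1r A_55_P2025073 with quantile normalization (-0.0569) and normexp (-0.0862), and over the left-out arrays and embryos this value ran from -0.0864 to 0.161. The paraxial genotype difference of Cx3cr1 was 0.19 with normexp. Over the left-out arrays and embryos, values that changed sign ran from -1.34 to 0.89 for Cx3cr1, -0.72 to 1.04 for C1qb and -0.52 to 0.83 for Tyrobp (mutant minus wild type, paraxial tissue), from -1.30 to 0.0466 for C1qb in neural tube, and from -0.97 to 0.16 for Lyz2 and -0.457 to 0.00332 for Ctss (tissue difference). The cause was not tested. The number of embryos, 2 a genotype, limits every contrast, and Ctss is limited by its signal over background.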
